A study of Mus musculus with 17 samples.

Results

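Tumours from mouse mammary gland were ordered by how strongly they expressed genes of the glandular epithelium, and the upper and the lower part of that order were compared. The measure was the mean log2 level of 27 epithelial marker genes; a difference of 1 log2 unit is a 2-fold difference. The list names 29 markers, of which Prlr and Areg have no probe set of their own here. The 6 tumours with the highest mean form the epithelial-high side and the 6 with the lowest mean the epithelial-low side, so the comparison takes in all 12 tumours of a series of 17 arrays; the other 5 arrays are normal mammary tissue. The low side had been proposed as spindle-like, a term for tumours of elongated, mesenchyme-like cells, but the labels give no histology. In the 12 tumours no gene of the mesenchymal lists lay higher there by 1 log2 unit without overlap. That cannot decide the name, because 0 of all 19911 non-marker genes did. Of 44 mesenchymal genes 12 had the higher mean on the low side, and 29 did when 1 array that stood apart, p53 replicate 2, was left out. Over all non-marker genes in the 12 tumours, 46.5% had the higher mean on the high side. No such share is given without p53 replicate 2, so the 29 is a value only. The sides are therefore named by the rule alone.

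The tumours arose in mice of mixed strain background after tumour suppressor genes were deleted by Cre, an enzyme that cuts out DNA flanked by its target sites. In 9 tumours Rb1, which encodes the retinoblastoma protein, and Trp53, which encodes p53, are both labelled as deleted (Rb/p53). In 7 of these Cre was driven by the promoter of mouse mammary tumour virus (MMTV-Cre), active in mammary epithelium and also in some other tissues, and in 2 from an adenovirus (Ad-Cre) with a general viral promoter. Of the MMTV-Cre tumours, replicate 1 is labelled nulliparous and replicate 2 parous; transplant labels are on replicates 3 to 7 and on both tumours made with Ad-Cre. In the 3 p53 tumours, also from MMTV-Cre mice, p53 alone is labelled as deleted; for replicate 3 the title says Rb/p53 and all its other labels say p53. Normal tissue (5 samples) is labelled with the Rb/p53 mice. No ages are used here, and the tumours are described as independent.

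Mammary epithelium has an inner luminal layer, whose cells make milk proteins, and an outer basal layer of contractile myoepithelial cells. Luminal cells are held together by E-cadherin (Cdh1), the adhesion molecule Epcam, claudins and keratins, and carry splicing factors (Esrp1, Esrp2) and transcription factors (Elf5, Ehf, Grhl2, Gata3, Foxa1) that keep the epithelial state. In an epithelial to mesenchymal transition, factors such as Snai1, Zeb1 and Twist1 repress these genes, and cells gain mesenchymal proteins such as vimentin and N-cadherin. Mammary tumours can lie anywhere along that range.

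A pair of arrays stood apart and touch many of the values below. Epithelial-high MMTV-Cre replicate 2 carried genes of salivary and lacrimal gland secretion: Bpifa2 was at 14.17, Pip, which encodes a prolactin-induced secretory protein, at 13.44, the odorant-binding protein gene Obp1a at 13.36 and the amylase gene Amy1 at 13.41. The mean level of the 18 genes of that list, chosen after the values were seen, was 11.12 in this tumour against 5.86 to 6.47 in all other tumours and 6.04 to 6.21 in normal tissue. Epithelial-low p53 replicate 2 had a narrower spread of probe set values (interquartile range 2.39 against 2.91 to 3.18 on the other arrays). It correlated less with the other tumours (r across probe sets 0.888 to 0.915, against 0.959 to 0.985 between them). Among the tumours its macrophage list (12.02) and neutrophil list (9.89) were highest and its mitosis list (8.29) lowest. The part of glandular tissue or of leukocytes in the results was not tested. In whole tissue, fewer cells of a type and less RNA per cell cannot be told apart. The heat map of the salivary and lacrimal genes shows how far the first of these arrays departs.

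**Figure D1:**
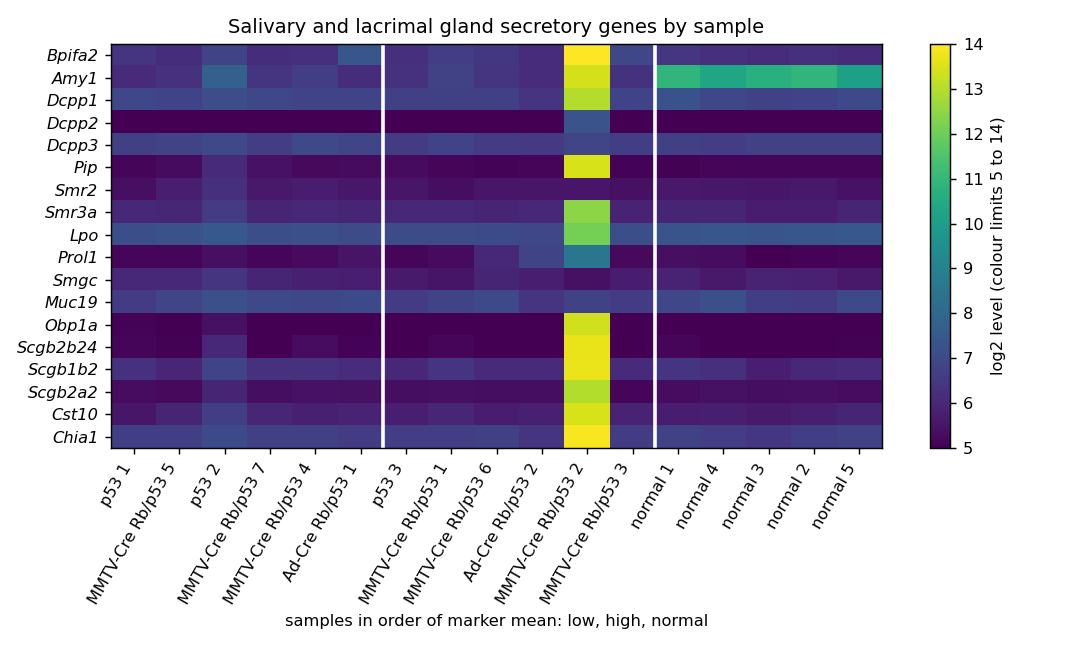
Log2 level (colour, 5 to 14) of 18 salivary and lacrimal gland secretory genes (rows) in 12 tumours and 5 normal samples (columns, in order of the marker mean, white lines between sides). Epithelial-high MMTV-Cre replicate 2 has a mean level of 11.12, and the other tumours lie between 5.86 and 6.47.

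The targeted gene bears on the labels. Rb1 was at 10.93 to 11.50 in normal tissue, at 9.93, 10.999 and 10.27 in p53 replicates 1, 2 and 3, and at 9.29 to 9.92 in the Rb/p53 tumours. The p53 tumours thus lay above all Rb/p53 tumours, by a very small margin for p53 replicate 1. Over all tumours Rb1 was lower than in normal tissue by limma (difference -1.46, SE 0.22, adjusted p 8.8568e-05), and it differed between the sides by -0.23, or -0.0013 without p53 replicate 2. Trp53 was not analysed here.

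The marker mean ran from 7.84 to 9.31 over the tumours. On the low side it was 7.84 in p53 replicate 1, 7.90 in MMTV-Cre replicate 5, 7.92 in p53 replicate 2, 7.92 in MMTV-Cre replicate 7, 8.05 in MMTV-Cre replicate 4 and 8.09 in Ad-Cre replicate 1. On the high side it was 8.47 in p53 replicate 3, 8.53 in MMTV-Cre replicate 1, 8.82 in MMTV-Cre replicate 6, 8.92 in Ad-Cre replicate 2, 9.17 in MMTV-Cre replicate 2 and 9.31 in MMTV-Cre replicate 3. The low tumours lay close together (range 0.24), the high tumours were spread more widely (range 0.84), and the step between the nearest tumours of the sides was 0.39. Side means were 8.87 ± 0.34 (SD, n = 6) and 7.95 ± 0.09 (SD, n = 6). Normal tissue lay above every tumour, at 10.13 to 10.25.

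**Figure D2:**
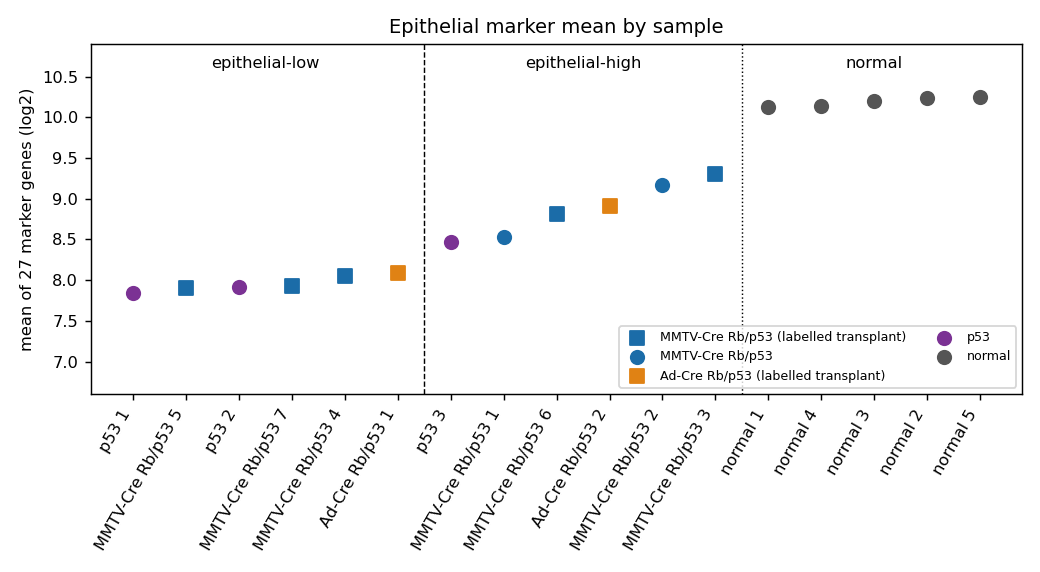
Mean log2 level of 27 epithelial marker genes (vertical axis) in each tumour and normal sample (horizontal axis, in order); squares carry transplant labels and colours give the model. Epithelial-low tumours lie at 7.84 to 8.09, epithelial-high tumours at 8.47 to 9.31 and normal tissue at 10.13 to 10.25.

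Each model appears on both sides by its labels, though the only p53 tumour on the high side is replicate 3, whose title says Rb/p53. The high side holds 5 Rb/p53 tumours and 1 p53 tumour, the low side 4 and 2; 3 of the high and 4 of the low tumours carry transplant labels. The marker mean was compared between labels by exact permutation tests, two-sided, adjusted over 4 comparisons. Rb/p53 tumours exceeded p53 tumours by 0.45 (8.52 ± 0.55, SD, n = 9, against 8.08 ± 0.34, n = 3; exact p 0.2, adjusted p 0.4). Tumours with transplant labels differed from the others by 0.04 (exact p 0.904, adjusted p 1), and Ad-Cre from MMTV-Cre Rb/p53 tumours by -0.03 (exact p 1; the smallest p this design allows is 0.0556). With 1 tumour left out, the Ad-Cre difference ran from -0.44 (without Ad-Cre replicate 2) to 0.39 (without Ad-Cre replicate 1), and the transplant difference from -0.10 (without MMTV-Cre replicate 3) to 0.24 (without MMTV-Cre replicate 2). None of these 3 differences passed, which does not show that the groups are alike. The mean of the tumours minus that of normal tissue was -1.78, and 12 of 12 tumours lay below every normal sample (exact p 3.2321e-04, the smallest possible here, adjusted p 0.00129).

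The markers that make up the mean did not fall as 1 block. Since they define the sides, their differences are a description: 26 of 27 had the higher mean on the high side, 11 by at least 1 log2 unit, with a median difference of 0.77, and 4 did not overlap between sides (Cdh1, Esrp1, Esrp2 and Spint2). Cdh1 had its lowest, median and highest values at 8.71, 9.48 and 10.06 in the high tumours and at 7.60, 7.95 and 8.55 in the low tumours, against 10.65 to 11.36 in normal tissue. Esrp1, the epithelial splicing regulator, was at 7.36, 8.38 and 9.31 against 6.26, 6.58 and 7.29, with 10.08 to 10.64 in normal tissue. Epcam differed most on average, by 2.83, at 9.65, 10.42 and 11.06 against 6.47, 7.10 and 9.75. Its overlap came from the low tumour Ad-Cre replicate 1, with 9.75 next to 9.65 in the high MMTV-Cre replicate 1, while the other low tumours were at 6.47 to 8.01.

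Among the keratins, Krt19 spanned 6.80 to 11.89 in the high tumours and 6.78 to 8.42 in the low ones, so that Ad-Cre replicate 2 on the high side had no more of it than the low side. Krt8, the main luminal keratin, stayed high on both sides, at 11.90, 12.57 and 13.53 against 10.35, 12.55 and 13.27, with 12.30 to 12.57 in normal tissue; its partner Krt18 was at 10.52, 10.86 and 12.32 against 7.70, 10.33 and 10.96. The lowest Krt8 and Krt18 values both came from p53 replicate 2, without which their differences were 0.10 and 0.80. Esr1, the oestrogen receptor gene, differed by -0.05 between the sides, yet its 12 tumour values (8.14 to 9.17) all lay below the normal ones (10.13 to 10.56). Olfactory receptor genes, which act in the nose, give a guide to levels without clear expression. The 95th percentile over 1027 of them was 7.25; 9 markers had low-side means under it, against 2 with high-side means under it.

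Against normal tissue, which the rule did not use, 20 of 27 markers were lower in the tumours by limma (adjusted p below 0.05) and 0 higher; over all genes 13.2% were lower and 11.6% higher. In 14 of the 27 every normal sample exceeded every tumour. Elf5, a driver of secretory luminal differentiation, was at 11.31 to 11.57 in normal tissue, at 6.99, 7.77 and 9.53 in the high and at 6.51, 6.76 and 7.36 in the low tumours (tumour minus normal -3.998, SE 0.41, limma adjusted p 7.9731e-07). Krt8 was among those that did not pass (difference -0.07, SE 0.42, limma adjusted p 0.932). For 25 of the 27 markers the high-side mean lay between the low-side mean and the normal mean, its place above the low side being set by the rule. The exceptions were Krt8, with a high-side mean of 12.62 above the normal 12.45, and Esr1, with a high-side mean of 8.60 below the low-side 8.66.

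**Figure D3:**
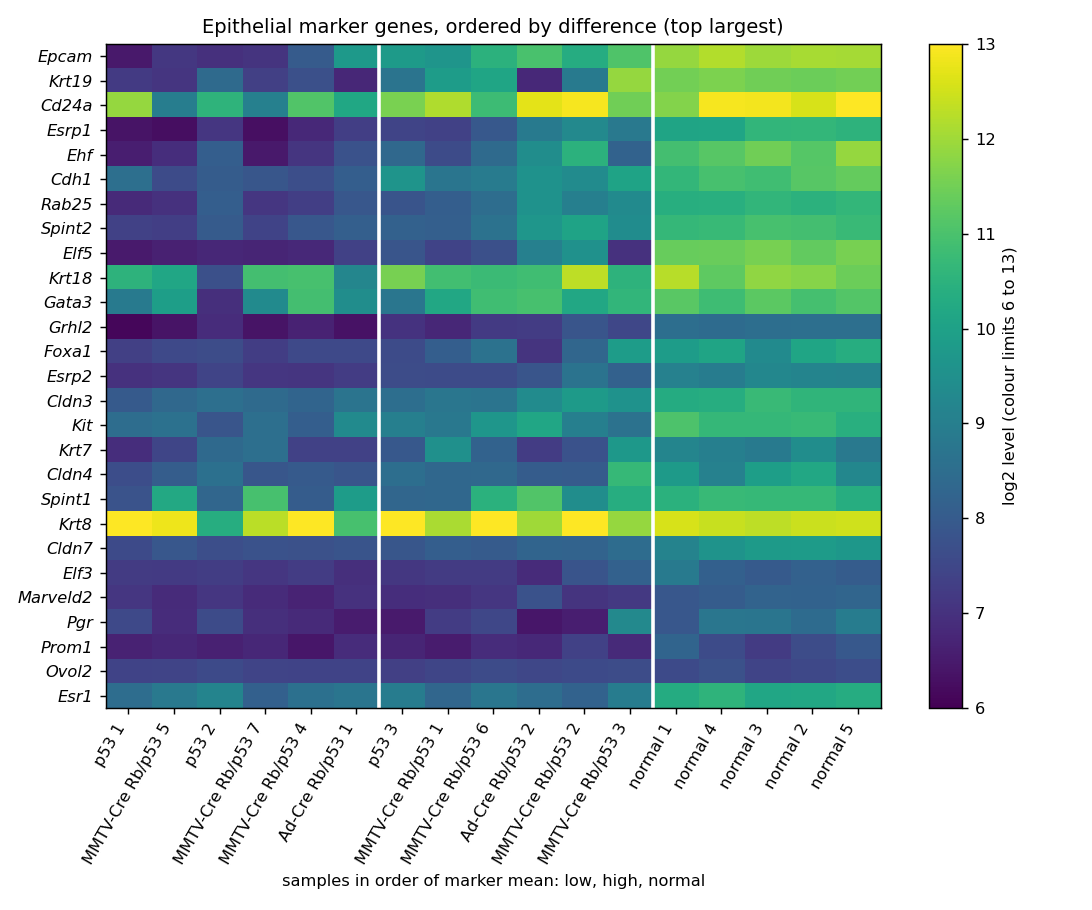
Log2 level (colour, 6 to 13) of 27 marker genes (rows, largest difference at the top) in 12 tumours and 5 normal samples (columns, in order of the marker mean, white lines between sides). Epcam, Esrp1 and Cdh1 step up from low to high to normal, while Krt8 is high in all 3 sets.

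Snail and ZEB factors bind the E-box CACCTG, which reads CAGGTG on the other strand, so the letters of marker promoters were searched for it, on both strands and over 300 bases from 250 before to 50 after each start in RefSeq's table (GRCm38.p6). Windows were found for 22 of the 29 listed markers. At least 1 match was present in 19 of their 30 windows (63.3%, 17 genes), against 20.2% of all 32851 promoter windows; 6 of the 30 marker windows and 2.88% of all windows held 2 or more. The same letters were in 6 of 14 windows of the milk list (42.9%) and 6 of 17 windows of the apart genes that are no markers (35.3%). Base composition was not matched. The 4 markers with 2 or more matches and the largest difference between sides were Epcam, Rab25, Spint2 and Elf5, and the 250 bases before their starts are shown, 5′ to 3′ on the gene's strand, with the matches in capitals:
Epcam (chr17:87635729-87635978, plus strand): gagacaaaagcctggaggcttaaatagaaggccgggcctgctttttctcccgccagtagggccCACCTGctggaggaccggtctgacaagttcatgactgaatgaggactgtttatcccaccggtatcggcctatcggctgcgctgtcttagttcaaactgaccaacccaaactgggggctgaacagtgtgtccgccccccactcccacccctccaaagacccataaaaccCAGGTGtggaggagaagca
Rab25 (chr3:88548280-88548529, minus strand): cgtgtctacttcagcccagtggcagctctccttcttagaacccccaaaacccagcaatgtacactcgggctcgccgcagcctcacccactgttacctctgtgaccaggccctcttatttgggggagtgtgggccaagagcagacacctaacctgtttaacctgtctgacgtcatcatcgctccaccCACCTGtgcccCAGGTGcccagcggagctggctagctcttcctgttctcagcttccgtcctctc
Spint2 (chr7:29281978-29282227, minus strand): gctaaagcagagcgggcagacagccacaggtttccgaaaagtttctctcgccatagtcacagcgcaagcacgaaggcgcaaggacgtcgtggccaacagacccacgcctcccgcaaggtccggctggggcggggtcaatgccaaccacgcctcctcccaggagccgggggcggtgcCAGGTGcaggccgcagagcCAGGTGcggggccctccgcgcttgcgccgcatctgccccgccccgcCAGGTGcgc
Elf5 (chr2:103411848-103412097, plus strand): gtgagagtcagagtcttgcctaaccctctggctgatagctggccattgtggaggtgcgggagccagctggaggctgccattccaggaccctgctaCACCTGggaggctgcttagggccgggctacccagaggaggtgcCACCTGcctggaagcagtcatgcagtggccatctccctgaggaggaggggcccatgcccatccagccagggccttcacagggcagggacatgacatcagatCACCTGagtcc
Epcam and Rab25, a vesicle transport gene, hold 2 matches each and Spint2, a protease inhibitor gene, and Elf5 hold 3 each. The matches are a description of letters and not of bound sites.

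Outside the markers, the split was described over 19911 genes, with no test, because the sides were picked from the same arrays. A gene is called apart where no high tumour overlaps a low tumour and the means differ by at least 1 log2 unit. By that rule 14 genes (0.0703%) were higher on the epithelial-high side and 0 (0.0%) lower. With overlap allowed, 152 genes (0.763%) were higher by at least 1 and 5 (0.0251%) lower. Leaving out p53 replicate 2, an epithelial-low tumour, gave 23 apart genes higher (0.116%), 13 of the 14 among them; leaving out Ad-Cre replicate 1 gave 30 and p53 replicate 1 gave 24. Without MMTV-Cre replicate 2 there were 15 (0.0753%), including all 14. Without both arrays 21 (0.105%) were higher and 1 (0.00502%) lower. Among the Rb/p53 tumours alone (5 high, 4 low) 46 (0.231%) were higher and 4 (0.0201%) lower, and among tumours with transplant labels (3 high, 4 low) 92 (0.462%) and 11 (0.0552%), with 13 and 12 of the 14 kept. Of the 14, 11 were lower in tumours than in normal tissue by limma, against 13.2% of all genes. In all 14 the tumour mean was below the normal mean.

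Milk protein genes differed most. All 15 measured genes of the milk and secretory list had the higher mean on the high side, with a median difference of 1.98 against -0.02 over all genes, and 3 were apart (Csn1s2a, Csn2 and Btn1a1). Without MMTV-Cre replicate 2, the tumour with salivary and lacrimal genes, the median was 1.34 and the same 3 genes remained apart. That tumour is also labelled parous, and the part of parity in the milk values was not tested. Csn1s2a, a casein gene, was at 11.24, 12.60 and 13.49 (lowest, median, highest) in the high tumours and at 5.90, 7.66 and 11.17 in the low tumours, with 13.13 to 13.81 in normal tissue; its means differed by 4.04, or 16.4-fold. Csn2, which encodes beta-casein, was at 10.39, 12.19 and 13.94 against 7.62, 8.77 and 9.99, with 13.84 to 14.31 in normal tissue, a difference of 3.53, or 11.6-fold. For Csn2 only MMTV-Cre replicate 2, the array with salivary and lacrimal genes, reached the normal range, and the next tumour, Ad-Cre replicate 2, was at 13.57. For Csn1s2a MMTV-Cre replicate 2 (13.49) and MMTV-Cre replicate 6 (13.16) reached it, while the lowest Csn1s2a value was near the median of the olfactory receptor genes, 5.70.

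The low side was not uniform. For Csn1s2a, MMTV-Cre replicate 4 and Ad-Cre replicate 1 were at 11.17 and 11.08, just under the lowest high tumour, and the other 4 low tumours at 5.90 to 7.92. For Csn1s1 those same 2 low tumours, at 11.40 and 12.22, overlapped the high tumours (11.23 to 13.14), and the other 4 were at 4.86 to 8.75. Csn3, the kappa-casein gene, was at 10.74, 11.64 and 12.49 in the high tumours and at 7.67, 8.50 and 11.92 in the low ones. Csn2 was lower than normal in the tumours by limma (-3.56, SE 0.91, adjusted p 0.00749), as was Csn3 (-2.32, SE 0.77, adjusted p 0.0353), whereas Csn1s2a missed the threshold (-3.04, SE 1.11, adjusted p 0.0544).

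Late milk genes varied within the high side. Wap, whey acidic protein, was at 11.52 in MMTV-Cre replicate 1, 12.80 in MMTV-Cre replicate 2, 9.45 in Ad-Cre replicate 2 and 8.44 in p53 replicate 3, and at 7.35 to 7.90 in all other tumours. Glycam1, a mucin-like milk protein gene, had its 3 highest values in the same 3 Rb/p53 tumours (11.33, 12.40 and 9.22). Normal tissue itself ranged from 7.99 to 12.12 for Wap and from 6.86 to 11.66 for Glycam1. Wfdc18 was at 9.78, 11.22 and 13.26 in the high and at 7.29, 8.74 and 11.44 in the low tumours. Btn1a1, butyrophilin of the milk fat globule, was at 7.39, 8.54 and 9.86 against 6.75, 7.20 and 7.31, with 8.36 to 11.53 in normal tissue. The Btn1a1 sides barely cleared each other: p53 replicate 3 (7.39) and MMTV-Cre replicate 3 (7.45) lay just above the highest low tumour and near the olfactory 95th percentile, and the other high tumours were at 8.21 or more.

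Milk protein genes are known targets of STAT5, which prolactin activates and which binds the letters TTCNNNGAA. This motif, searched after the values were seen and reading the same on both strands, was found in 4 of 14 promoter windows of the milk list (28.6%) and in 8.3% of all windows. Matches in Csn2 and Csn1s1 lie before the start, and their 250 upstream bases are shown in the same way (GRCm38.p6):
Csn2 (chr5:87699426-87699675, minus strand): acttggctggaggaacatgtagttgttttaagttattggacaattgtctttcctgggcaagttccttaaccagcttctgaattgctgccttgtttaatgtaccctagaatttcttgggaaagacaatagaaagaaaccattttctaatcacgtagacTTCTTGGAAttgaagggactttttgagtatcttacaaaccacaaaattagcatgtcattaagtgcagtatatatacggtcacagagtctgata
Csn1s1 (chr5:87665958-87666207, plus strand): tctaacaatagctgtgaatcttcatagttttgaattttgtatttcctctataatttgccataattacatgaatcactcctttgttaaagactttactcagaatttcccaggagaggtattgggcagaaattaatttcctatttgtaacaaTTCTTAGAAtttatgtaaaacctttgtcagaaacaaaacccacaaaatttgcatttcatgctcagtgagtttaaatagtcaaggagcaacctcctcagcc
Each holds 1 match. Csn1s2a holds 1 as well, TTCTTAGAA, at position 271 of its 300-base window, past the start. STAT5 activity was not measured.

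**Figure D4:**
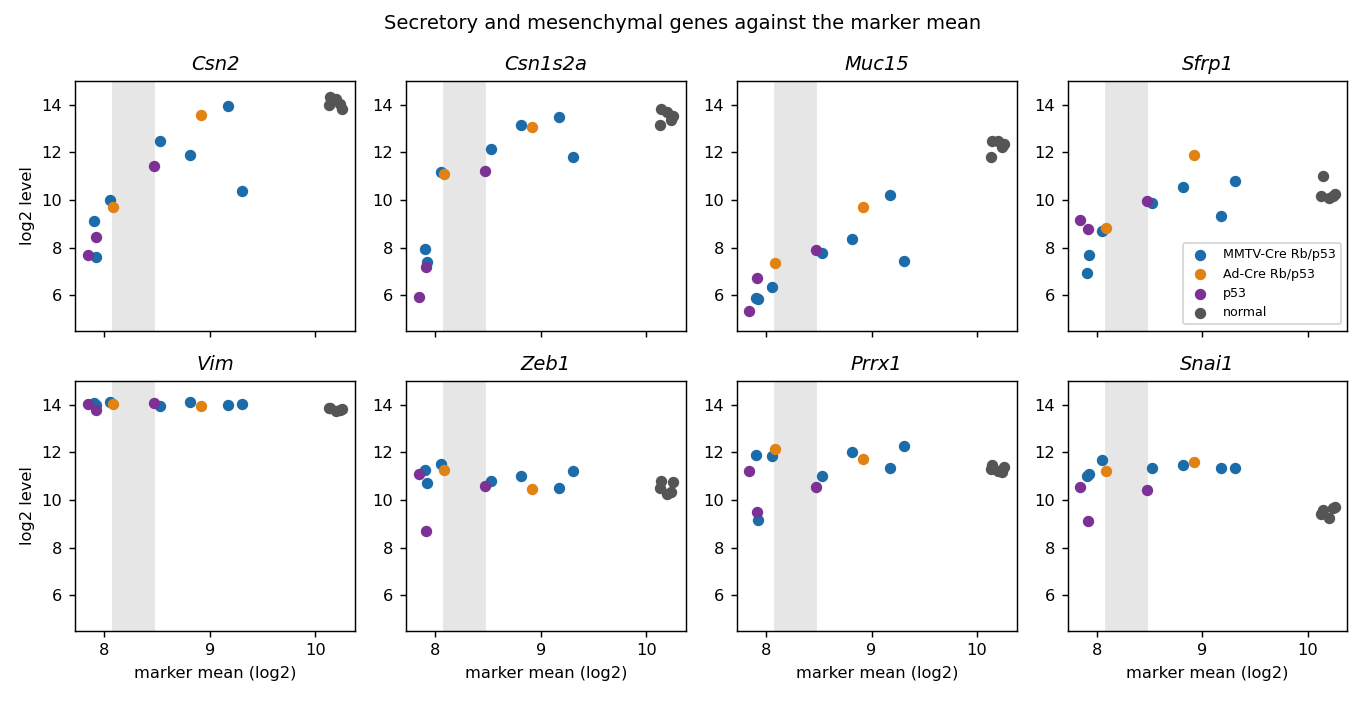
Log2 level of 8 genes (vertical axes) against the marker mean (horizontal axis, log2) in 12 tumours and 5 normal samples; colours give the model and the grey band is the gap between sides. Csn2, Csn1s2a, Muc15 and Sfrp1 are higher right of the band in every tumour, and Vim stays at 13.78 to 14.13 in all tumours.

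The other 11 apart genes belong to no single list. Muc15, a membrane mucin of the milk fat globule, was at 7.43, 8.12 and 10.20 in the high tumours and at 5.33, 6.13 and 7.37 in the low tumours, with 11.82 to 12.49 in normal tissue (high minus low 2.30). Tlcd4, a membrane protein gene, was at 7.48, 8.31 and 10.42 against 5.54, 6.04 and 7.02 (difference 2.37). Sfrp1, a secreted Wnt inhibitor, was at 9.33, 10.24 and 11.91 against 6.95, 8.74 and 9.14 (difference 2.05) with 10.10 to 11.02 in normal tissue. Fbln1, an extracellular matrix gene, was at 9.82, 10.79 and 11.75 against 8.17, 9.31 and 9.77, with 10.51 to 11.04 in normal tissue. For Sfrp1 and Fbln1 the tumours did not differ from normal tissue by limma (adjusted p 0.258 and 0.267).

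The remaining 7 apart genes differed less. They were Clca3a2, related to chloride channel regulators (1.42), Slc44a3, of the choline transporter-like family (1.34), Galnt3, which starts O-linked sugar chains on mucins (1.33), the glutathione transferase gene Gstt3 (1.29), the phospholipid flippase gene Atp9a (1.18), the membrane protein gene Tmc4 (1.05) and Jup, which encodes plakoglobin of desmosomes and adherens junctions (1.03). Clca3a2 was at 7.15 to 9.27 in the high and 6.37 to 7.06 in the low tumours, while normal tissue had 10.77 to 12.27 (tumour minus normal -3.88, SE 0.42, limma adjusted p 1.6222e-06). Jup was at 10.73, 10.79 and 11.38 against 9.13, 9.90 and 10.72, so that its sides were just clear of each other. Low-side means of 5 of the 14 genes lay under the olfactory 95th percentile.

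Cell junction genes moved with the markers only in part. Of 32 measured genes for junctions and polarity that are no markers, 27 had the higher mean on the high side. Over all non-marker genes 46.5% did, the share to set beside such counts for the lists below where all 12 tumours are used. For counts with an array left out no such share is given, so they are values only. Of the 32, 1 (Jup) was apart, and the median difference was 0.37. Cldn8 was at 7.11, 7.82 and 9.50 against 6.59, 6.96 and 7.44, and Dsp, which encodes desmoplakin, at 7.48, 7.71 and 9.25 against 6.75, 7.09 and 7.87. Dsp was apart without p53 replicate 2, where its difference was 1.02. The tight junction genes Ocln (6.58 to 7.48 against 5.87 to 7.11) and Cldn1 (8.15 to 11.50 against 7.91 to 10.20) overlapped between sides. Against normal tissue 20 of the 32 genes were lower in tumours by limma and 0 higher, against 13.2% and 11.6% of all genes.

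Among 20 genes of epithelial surface proteases and trafficking 0 were apart, 15 had the higher mean and the median difference was 0.26, or 0.16 without MMTV-Cre replicate 2. The largest were the membrane-anchored proteases of 1 cascade: Prss8, prostasin, at 7.29, 7.88 and 9.58 against 6.70, 7.10 and 7.41, and St14, matriptase, at 8.47, 8.96 and 9.35 against 7.54, 7.86 and 8.56. Both were lower in tumours than in normal tissue by limma (Prss8 -2.55, SE 0.34, adjusted p 1.8444e-05; St14 -2.06, SE 0.27, adjusted p 2.0165e-05). St14 was apart without p53 replicate 2.

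Of 21 further epithelial transcription factors 15 had the higher mean, 0 were apart and the median difference was 0.26, or 0.06 without p53 replicate 2. Foxq1 differed most, by 0.76 (7.30, 8.13 and 9.63 against 7.22, 7.48 and 7.74), and Tfap2c by 0.60. The receptor tyrosine kinases had a median difference of 0.20, or 0.31 without MMTV-Cre replicate 2, with 0 of 28 apart. Erbb3, the partner of Erbb2 in neuregulin signalling, was at 7.47, 8.18 and 8.57 in the high and at 6.93, 7.16 and 7.68 in the low tumours, against 9.29 to 10.15 in normal tissue. Met, the hepatocyte growth factor receptor, differed by 1.20, but by 0.38 without p53 replicate 2, which had 6.82 while the other tumours had 10.65 to 13.60. Ddr1, a collagen receptor of epithelial cells, differed by 0.72 and its mesenchymal relative Ddr2 by -0.12, both overlapping. Differences were 0.40 for Erbb2, 0.19 for Egfr, 0.15 for Fgfr1 and 0.56 for Fgfr2. Without p53 replicate 2 they were 0.20, 0.05, -0.18 and 0.53, and that of Ddr2 was -0.49.

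Mesenchymal genes differed little between the sides, and their direction rested on p53 replicate 2. Of 22 mesenchymal transition factors 17 had the higher mean on the epithelial-high side and 5 the lower, 0 were apart, and the median difference was 0.27, or -0.03 without p53 replicate 2. Of 22 genes for the mesenchymal cytoskeleton and adhesion 15 had the higher mean, 0 were apart, and the median was 0.10, or -0.09 without that array. Without it 14 and 15 of the 22 genes of these lists had the higher mean on the low side. The collagen chains had a median of -0.03 with 0 of 21 apart, or -0.10 without p53 replicate 2 and 0.08 without MMTV-Cre replicate 2; their mean differed by 0.03, of the opposite sign.

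Vim, the gene of vimentin and the usual marker of mesenchymal cells, was at 13.93, 14.003 and 14.13 in the high tumours, at 13.78, 14.04 and 14.10 in the low ones and at 13.75 to 13.86 in normal tissue. Its sides differed by 0.01 (14.01 ± 0.08 against 14.002 ± 0.12, SD, n = 6 each). Fn1, fibronectin, was at 13.58 to 14.04 against 13.59 to 14.09. Over the tumours only 4 genes had a higher mean than Vim and 7 a higher mean than Fn1, and the highest of any gene was 14.32. A limit at the top of the scale was not tested, so these values do not show that the genes were equal. Cdh2, N-cadherin, spanned 6.70 to 10.79 in the high tumours and 7.29 to 10.77 in the low ones, with the lowest values in the 2 arrays that stood apart, and 7.69 to 8.47 in normal tissue. Its difference was 0.36, or -0.07 without p53 replicate 2 and 0.98 without MMTV-Cre replicate 2.

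The repressors of epithelial genes were present on both sides. Zeb1 was at 10.47, 10.68 and 11.21 in the high tumours and at 8.70, 11.17 and 11.52 in the low ones, where 8.70 is p53 replicate 2. Without that array the difference went from 0.01 to -0.40, that is, higher on the low side, still with overlap. Snai1 was at 10.43, 11.34 and 11.59 against 9.10, 11.06 and 11.69, and at 9.26 to 9.70 in normal tissue; the tumours had more of it than normal tissue by limma (1.49, SE 0.31, adjusted p 0.00141). Differences for Zeb2, Snai2, Twist1 and Prrx1 were 0.15, 0.37, 0.37 and 0.52, and without p53 replicate 2 they were 0.33, -0.08, -0.01 and 0.23. S100a4 and Axl, often raised in mesenchymal cells, differed by -0.19 and -0.14.

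The largest difference in favour of the low side was Foxf1, a forkhead factor of mesenchyme. It was at 8.60, 10.94 and 11.49 (lowest, median, highest) in the low tumours and at 8.21, 9.28 and 10.75 in the high ones, a high minus low difference of -1.28, and at 8.12 to 8.41 in normal tissue. The tumours exceeded normal tissue by limma (1.71, SE 0.52, adjusted p 0.0214). Without p53 replicate 2, the low tumour at 8.60, the difference was -1.68 and the low tumours started at 10.55. MMTV-Cre replicate 1, at 10.75, then overlapped them. Among the tumours with transplant labels (3 high, 4 low) Foxf1 was apart, with a difference of -1.56. In that subset 1 of the 22 transition factors was apart in each direction. Hgf, the ligand of Met that mesenchymal cells make, had a difference of -0.96, or -1.32 without p53 replicate 2 (8.41, 10.42 and 11.65 in the low and 7.94, 9.09 and 11.19 in the high tumours).

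The other genes lower by at least 1 with overlap were Srpx2 (-1.05), the granzyme genes Gzmd (-1.06) and Gzmf (-1.13), and Nlrp4e (-1.23); these were named after their values were seen. Gzmd ran from 7.29 to 10.47 in the low and from 5.63 to 10.29 in the high tumours, and all normal samples were at 4.87 to 5.15. Nlrp4e was at 12.41 in p53 replicate 2 and at 4.23 to 4.69 in every other tumour, so its difference comes from 1 array, and without it is 0.09.

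With no minimum on size, 105 genes (0.527%) lay lower in every high tumour than in any low tumour and 51 (0.256%) higher. The 105 had a median difference of -0.29 and none reached a fall of 1; the largest was -0.71. Of them 70 had levels under the olfactory 95th percentile, 30 were chemosensory receptor genes (6.24% of all genes are), and those past 0.5 were Olfr1085, Olfr767 and Vmn2r-ps104. The share of all genes under the olfactory 95th percentile is not given. The 25th percentile of the mean level over all genes, 6.90, is also under it. The 51 higher genes had a median difference of 0.57, and 0 were chemosensory. The 105 genes lower in every high tumour thus show small differences, at low levels for the most part.

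**Figure D5:**
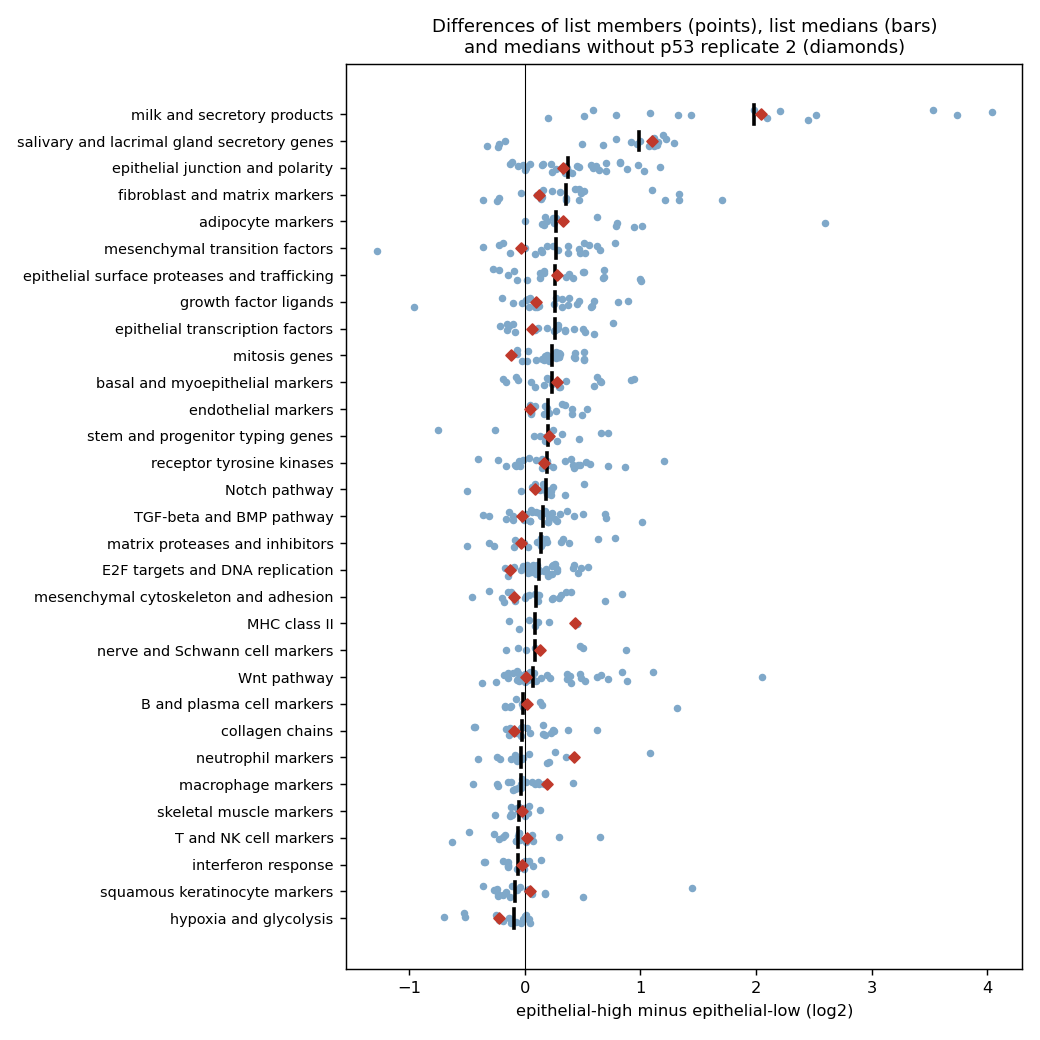
High minus low difference (log2, horizontal axis) of each measured gene of 31 lists (points, 1 row a list), with the list median (bar) and the median without p53 replicate 2 (diamond). The milk list has a median of 1.98, the mesenchymal transition factors 0.27, or -0.03 without p53 replicate 2, and the collagens -0.03.

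The basal layer and the fat of the gland differed far less between the sides than from normal tissue. The mean of 19 basal and myoepithelial genes was 8.48 to 8.72 in the high and 8.03 to 8.71 in the low tumours. In normal tissue it was 9.77 to 10.02. Of these genes 0 were apart, and 15 were lower in tumours by limma, against 13.2% of all genes. Krt5, a basal keratin, was at 7.001, 7.82 and 8.29 in the high tumours and at 6.84, 6.97 and 9.53 in the low ones, the last being p53 replicate 2, against 10.81 to 11.27 in normal tissue. Krt14 was at 7.72, 9.07 and 9.62 against 7.57, 7.81 and 9.82, and Trp63, the basal master regulator, at 7.80 to 8.75 against 7.77 to 8.42. The squamous keratinocyte genes had a median of -0.09, or 0.04 without p53 replicate 2, and a mean of 0.02, of opposite sign to the first.

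All 15 adipocyte genes had the higher mean on the high side, with a median of 0.27 and 0 apart. Their mean level was 7.66 to 8.69 in the high and 7.51 to 7.89 in the low tumours. In normal tissue it was 12.07 to 12.69, and all 15 were lower in tumours by limma, against 13.2% of all genes. Car3, a carbonic anhydrase gene of fat cells, was at 11.60, 10.89, 11.85 and 11.20 in p53 replicate 3 and MMTV-Cre replicates 1, 6 and 2, and at 7.05 and 8.69 in the other 2 high tumours. The low tumours were at 6.91 to 7.31 except MMTV-Cre replicate 5 at 10.15. Adipoq was at 6.07 to 8.33 in the high and 6.07 to 6.64 in the low tumours, against 12.54 to 13.31 in normal tissue. The part of residual fat or normal gland in the differences between the sides was not tested.

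Leukocyte, vessel and muscle lists overlapped between the sides. Median differences were -0.03 for macrophage, -0.03 for neutrophil, -0.06 for T and NK cell, -0.02 for B and plasma cell, 0.09 for MHC class II, 0.20 for endothelial and -0.05 for skeletal muscle genes, each with 0 apart. Without p53 replicate 2 the medians were 0.19 for macrophage, 0.42 for neutrophil, 0.02 for T and NK cell, 0.02 for B and plasma cell, 0.43 for MHC class II, 0.04 for endothelial and -0.02 for skeletal muscle genes. The direction of the first 4 thus changed without that array, in which macrophage and neutrophil genes were highest. For macrophage genes it also changed without MMTV-Cre replicate 2 (median 0.04). The neutrophil and B cell means had the opposite sign of their medians (0.05 and 0.08). The general leukocyte gene Ptprc differed by 0.13, or by 0.35 without p53 replicate 2. The fibroblast and matrix genes had a median of 0.36, or 0.13 without p53 replicate 2, with Fbln1 apart; Serpinf1 was at 10.81, 11.56 and 11.95 in the high and at 9.47, 10.09 and 11.31 in the low tumours.

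Signalling lists gave few separations. Of 38 Wnt pathway genes 26 had the higher mean, Sfrp1 was apart and the median was 0.07; the inhibitor genes Dkk3 and Sfrp2 differed by 1.11 and 0.88 with overlap, or by 1.08 and 0.49 without p53 replicate 2. Medians were 0.16 for 30 TGF-beta and BMP genes 0.18 for 14 Notch pathway genes and 0.26 for 24 growth factor ligand genes, each with 0 apart. Without p53 replicate 2 these medians were -0.02, 0.09 and 0.10, and the Wnt median was 0.01. The BMP inhibitor gene Grem1 differed by 1.01 with overlap. Interferon response genes had a median of -0.06 and hypoxia and glycolysis genes of -0.09, or -0.02 and -0.22 without p53 replicate 2. Of 18 hypoxia and glycolysis genes 12 had the lower mean on the high side. Without p53 replicate 2 it was 18 of them, and without MMTV-Cre replicate 2 it was 17. The matrix protease list (0.14, or -0.03 without p53 replicate 2) and the nerve and Schwann cell list (0.09) held 0 apart genes, and so did the stem and progenitor typing genes (0.20).

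Proliferation did not separate the sides. Mki67 was at 10.73, 10.95 and 11.07 in the high tumours and at 10.13, 11.03 and 11.68 in the low ones (difference -0.07, or -0.24 without p53 replicate 2). Mitosis genes had a median difference of 0.24 and E2F targets of 0.12. Without p53 replicate 2, which has the lowest mitosis level of the tumours, the medians were -0.12 and -0.13. Of 26 mitosis genes 3 had the lower mean on the high side, or 18 without that array. Of 36 E2F targets 5 did, or 31 without it. The share of all genes that changed direction without p53 replicate 2 is not given, so these counts are values only. Cdkn2a, which is known to rise when the retinoblastoma pathway is lost, was at 10.03 to 10.89 in the high and 8.30 to 11.05 in the low tumours, against 7.43 to 7.75 in normal tissue. Yap1, a growth regulator of the Hippo pathway, was highest in MMTV-Cre replicate 1 (13.51) on the high and MMTV-Cre replicate 7 (13.46) on the low side, and differed by 0.12, or by -0.42 without p53 replicate 2, so that its sign rests on that array.

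The miR-200 family, which represses Zeb1 and Zeb2 in epithelial cells, was looked up after the values were seen. It holds 5 microRNAs in 2 groups by seed, the bases 2 to 8 that pair with targets. The mature strands from RefSeq (GRCm38.p6) are shown 5′ to 3′ with the seed in capitals:
mmu-miR-141-3p: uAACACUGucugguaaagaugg
mmu-miR-200a-3p: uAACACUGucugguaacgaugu
mmu-miR-200b-3p: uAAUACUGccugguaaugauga
mmu-miR-200c-3p: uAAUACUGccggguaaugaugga
mmu-miR-429-3p: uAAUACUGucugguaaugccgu
The seed AACACUG is shared by miR-141 and miR-200a and the seed AAUACUG by the other 3. The array holds probe sets of the genes of 4, not of Mir429; they read total RNA of the locus and may not measure the mature form. Mir200b was at 5.75, 5.93 and 6.32 in the high tumours and at 5.45, 5.61 and 5.92 in the low ones, against 7.49 to 8.36 in normal tissue. It was lower in tumours by limma (-1.99, SE 0.16, adjusted p 2.6834e-08), and so were Mir200a (-0.54, SE 0.11, adjusted p 0.00145) and Mir141 (-0.32, SE 0.10, adjusted p 0.0265). Between the sides Mir200a and Mir141 differed by -0.07 and -0.11, or by 0.02 and -0.01 without p53 replicate 2. Mir200c was lower in every high tumour (6.16 to 6.58) than in any low tumour (6.65 to 7.10), a difference of -0.32 at levels under the olfactory 95th percentile.

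Genes whose order over the 12 tumours was most like that of the marker mean were found by Spearman's rho, as a description over tumours that share the normalisation. The highest were Agtr1a and Btn1a1 (0.92), followed by Ap1m2, Tlcd4, Parm1, Cited4 and Nt5dc2 (0.91 each), and Tmem184a, Slc44a3 and Camsap3 (0.90 each). Ap1m2, an epithelial subunit of a sorting adaptor, was at 7.08, 7.66 and 8.39 in the high tumours and at 6.62, 6.82 and 7.09 in the low ones. The most opposite were Srarp (-0.93), Olfr1491 (-0.92), Lhfpl5, Kncn and Ttc34 (-0.92 each), Shbg, Olfr767 and Olfr576 (-0.91, -0.91 and -0.90), and Olfr566 and Gpr62 (-0.90 each). Differences of these 10 ran from -0.61 for Olfr767 to -0.18 for Srarp. Tumour means of Srarp, Olfr1491, Lhfpl5, Shbg, Olfr576 and Olfr566 (6.47 to 7.16) lay under the olfactory 95th percentile. So did those of Ap1m2 (7.24) and Slc44a3 (7.18) among the most alike. All are extremes picked from the whole array over 12 tumours.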

How the data were processed

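Each of 12 tumours and 5 normal samples gave RNA for 1 Affymetrix Mouse Gene 1.0 ST array (17 in all). The deposited log2 values for 35556 probe sets were made by RMA in Partek 5.6, per the submitters' processing notes, which are held here without further settings or a build. RMA normalises between arrays, so a change of all genes together is not seen. Array number limits the precision. Probe sets with exactly 1 symbol were used (21789; 1621 had several and 12146 none), the one with the highest mean per symbol, for 19938 genes.

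The sides and all gene lists were chosen with earlier results of these data known. The split therefore has no test: a gene is apart where the sides do not overlap and means differ by at least 1. Labels were compared by exact permutation, and tumours with normal tissue by limma 3.58.1 under R 4.3.3 (linear fit and eBayes, tested on simulated data, Benjamini-Hochberg adjustment over 19938 genes, threshold 0.05). Replicates are tumours called independent; for normal samples nothing more is stated, so their spread may be partly technical.

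Named genes were the 12 largest apart each way in all tumours and without p53 replicate 2, up to 4 apart or else 2 of the largest per list, a fixed set, and the 10 genes most and least like the marker mean; predicted genes, small RNAs and immunoglobulin segments were skipped. The fixed set held transition factors, basal genes, receptors, junction genes, Vim, Rb1, Cdkn2a and Mki67. Other named members illustrate a list and were picked after their values were seen. The salivary and lacrimal list, the microRNA family and the TTCNNNGAA motif were added after the values were seen. Alternatives were other normalisations, probe set rules, filters, sizes and arrays left out. Sequences were matched by symbol to RefSeq tables with Python 3.11.15.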

Additional observations from a re-analysis of the deposited data

Results flagged for a closer look

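Single arrays stood far from the rest of their group in 13 of 202 checks of a gene or list in a group, by a test of the gap to the nearest value. Chance gives about 1 in 20, which is near that count, so the flags are given as values only. The flag of the salivary and lacrimal list was fixed in advance, because that list was chosen after its values were seen. MMTV-Cre replicate 2 was highest of the MMTV-Cre tumours in the salivary and lacrimal list (11.12; others 5.88 to 5.99), Krt18 (12.32; others 10.15 to 10.96) and Elf5 (9.53; others 6.64 to 7.70). MMTV-Cre replicate 3 was highest in Cldn4 (10.68; others 7.88 to 8.38), the progesterone receptor gene Pgr (9.30; others 6.59 to 7.49), squamous keratinocyte genes (7.34; others 6.79 to 7.01) and T and NK cell genes (7.59; others 6.93 to 7.16). Both are epithelial-high tumours, and leaving out replicate 2 does not change the marker means of the others.

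Cldn1 was highest in MMTV-Cre replicate 6 (11.50; others 7.91 to 9.37), Prrx1 lowest in MMTV-Cre replicate 7 (9.16; others 11.03 to 12.25) and Cdkn2a lowest in MMTV-Cre replicate 4 (8.30; others 10.03 to 11.01). In normal tissue, replicate 4 had the highest Sfrp1 (11.02; others 10.10 to 10.27) and the lowest mesenchymal cytoskeleton level (10.10; others 10.19 to 10.21), and replicate 1 the highest Elf3 (8.86; others 7.98 to 8.18).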

How the results depend on the processing

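The same 12 tumours fell on the same sides with the median or z scores of the markers, with each marker left out, and with the weak markers left out. They also did under 2 other normalisations and the mean of probe sets. Without either array that stood apart, all 11 others kept theirs. This is no check, since leaving out an array does not change the marker means of the others. The count of apart genes, 14 higher and 0 lower, was 46 and 4 in Rb/p53 tumours alone, 92 and 11 in tumours with transplant labels alone, and 100 and 4 for the 4 highest against the 4 lowest tumours. It was 31 and 3 with a minimum of 0.5, 51 and 105 with none, and 21 and 1 without both arrays that stood apart, the lower one being Adm. Fewer tumours make it easier not to overlap. Leaving out 1 tumour gave 13 to 30 higher and 0 to 0 lower. Against normal tissue 2319 genes were higher in tumours; this became 4320 with array weights, 3704 without p53 replicate 2 and 3708 in Rb/p53 tumours alone, and 1619 to 1879 when a normal sample was left out (2231 to 2417 lower, against 2639). The cause was not tested. The 4 label comparisons of the marker mean stayed on their side of the threshold in every alternative run, though the signs of the transplant and Ad-Cre differences changed when single tumours were left out (-0.10 to 0.24 and -0.44 to 0.39). Of 144 gene differences, 2 moved by more than the spread between replicates under cyclic loess and 5 in transplants alone. None changed sign among apart genes. No list difference in mean level moved by more than that spread, but several changed sign. Without p53 replicate 2, that of the mesenchymal transition factors went from 0.19 to -0.06 and that of mitosis genes from 0.23 to -0.11. Without MMTV-Cre replicate 2, that of the salivary and lacrimal list went from 0.73 to -0.14. No paired analysis was possible because the labels give no replicate numbers shared between groups. Signal over background limits the weak genes, such as the 9 markers whose low-side means lay under the olfactory 95th percentile.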

Other observations

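Some further genes separated the sides only when arrays were left out, and are given as values of that choice. Without p53 replicate 2, the 10 added genes were 2310057J18Rik, Ceacam1, Dsp, Fmo1, Hp, Ltf, Mal2, Pof1b, Serpinb5 and St14; they include Ltf, which encodes lactoferrin of milk and neutrophils, and Serpinb5, which encodes maspin of mammary epithelium. Without MMTV-Cre replicate 2 the only added gene was Il33, an interleukin gene. In the Rb/p53 tumours alone (5 high, 4 low) the 4 genes lower on the high side were Cd300lb, Morn4, Slc6a15 and Stox2. Among the tumours with transplant labels (3 high, 4 low) the 11 lower genes included these 4 and Foxf1, while 92 were higher.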
